A study of Mus musculus with 8 samples.

Results

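Genes for enzymes that make, remodel and break down phosphatidylcholine (PC) and the phospholipids around it were examined in the brains of E14.5 WT mouse embryos whose dams received a choline-deficient diet (CDD) or normal chow (ND). The members are 43 genes picked by name for their place in this metabolism, and all 43 were found among the 33971 genes of the deposited table. WT females were mated with WT males and, per the labels, were kept on CDD or ND from the day of mating until the embryos were collected, with 4 whole brains per diet. RNA with poly-A tails was sequenced in bulk. How many dams and litters gave these brains is not stated, so p-values measure the spread between the sampled brains, which may share a litter.

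PC is the most abundant phospholipid of animal membranes, and choline is the nutrient from which cells build its head group. In the CDP-choline branch choline is phosphorylated, activated with CTP and joined to diacylglycerol, and a parallel CDP-ethanolamine branch makes phosphatidylethanolamine (PE) in the same way. PE can also come from phosphatidylserine (PS), it can be methylated to PC, and phospholipases and phosphodiesterases return choline from PC and its breakdown products. The rate of the CDP-choline branch is set mainly at the cytidylyl transferase step, which *Pcyt1a* and *Pcyt1b* encode. In the developing brain this metabolism supplies the membranes of dividing progenitors and of growing axons.

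Of the 42 members with enough reads to be tested, 2 differed between the diets when edgeR's quasi-likelihood p was adjusted (threshold 0.05) over 19367 genes. *Pcyt1a*, for the alpha form of the cytidylyl transferase of PC synthesis, was 14.3% higher in CDD brains, and *Pld2*, for a phospholipase D that cleaves PC to phosphatidic acid and choline, was 15.7% lower. Across all genes 8.83% passed this threshold, 4.24% higher and 4.59% lower, and the members' count of 1 higher and 1 lower was no larger a share than this background. DESeq2 called 5 of 42 members and 11.3% of all genes, and limma-voom called 1 and 7.3%. Relative to edgeR both moved in the same direction, the members' small count by more in proportion. Without a filter on low counts edgeR called 4 of 43 members and 6.99% of all genes, so there the members' count rose while the share of all genes fell. Most members moved little: the median size of the log2 fold change, regardless of sign, was 0.06 over the members and 0.11 over all genes tested. Genes were not matched by read count here, so these medians do not show that members moved less than genes of like level. The 95% interval of the change lay within 0.2 on the log2 scale on either side of 0, which is a change of up to 14.9%, for 20 of 42 members, and within 0.5 for 38 of 42. The remaining 4 were *Pemt*, *Mboat1*, *Lpin3* and *Cds1*.

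For the 2 called genes and *Pcyt1b*, the 250 bases before the most 5′ start site in the RefSeq annotation of GRCm38.p6 are printed 5′ to 3′. Which start is used in these brains was not measured. *Pcyt1b* is shown because it encodes the beta form of the same enzyme and was not called. The windows lie on the + strand at chr16:32430671-32430920 for *Pcyt1a*, at chrX:93654613-93654862 for *Pcyt1b* and at chr11:70539814-70540063 for *Pld2*. Capitals mark the GC box GGGCGG, read on either strand, and the sterol regulatory element core TCACCCCAC, also searched on both strands.
Pcyt1a: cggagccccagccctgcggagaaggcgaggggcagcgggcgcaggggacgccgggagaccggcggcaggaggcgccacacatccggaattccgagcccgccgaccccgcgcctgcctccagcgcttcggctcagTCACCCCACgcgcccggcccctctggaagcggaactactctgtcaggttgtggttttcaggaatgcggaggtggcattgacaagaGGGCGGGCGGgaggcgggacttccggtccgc
Pcyt1b: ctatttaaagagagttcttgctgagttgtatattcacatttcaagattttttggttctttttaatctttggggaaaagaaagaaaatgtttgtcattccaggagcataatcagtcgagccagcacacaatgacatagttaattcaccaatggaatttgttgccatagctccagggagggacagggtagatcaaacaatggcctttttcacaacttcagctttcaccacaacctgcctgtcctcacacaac
Pld2: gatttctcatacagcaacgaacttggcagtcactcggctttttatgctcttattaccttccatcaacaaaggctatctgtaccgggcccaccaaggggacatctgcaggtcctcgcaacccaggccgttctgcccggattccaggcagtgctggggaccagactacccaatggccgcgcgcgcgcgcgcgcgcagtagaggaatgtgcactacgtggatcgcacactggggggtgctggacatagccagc
These motifs were picked after the *Pcyt1a* sequence had been read, and a match is a description of letters and not a bound site. The *Pcyt1a* window had 71.6% G and C and held 2 overlapping GC boxes, which began 31 and 27 bases before the start, and 1 sterol regulatory element core that began 116 bases before it. The *Pcyt1b* window had 39.6% G and C, the *Pld2* window had 58.8%, and neither held these letters. The choice of start matters here, since RefSeq lists others for these genes. The second start of *Pld2* had a window with 74.8% G and C and 6 GC boxes, and the second start of *Pcyt1b* one with 53.6% G and C and neither motif. Of the other *Pcyt1a* starts, the second also had 2 GC boxes and the sterol element core before it, and the third had neither. Among 32851 windows of the same length in the RefSeq table, 32.74% held a GC box and 0.4962% the sterol element core, and the median content of G and C was 52.4%. Of 37 members with a window at their first start, 24 held a GC box and 1, *Pcyt1a*, held the sterol element core. Over the first starts of 27025 genes these shares were 32.96% and 0.4699%. These genes were not matched to the members by type or read level, and an excess among the members was not tested. The E-box CACGTG was in the first-start windows of 2 members, *Lpin2* and *Pnpla7*, and of 6.043% of the 27025 genes. It was also before another start of *Sgms2*. The CCAAT box CCAAT, which is not capitalised, was in the first-start windows of 20 members and of 34.53% of the 27025 genes. It began 105 bases before the start of *Pcyt1b* and 84 bases before that of *Pld2*.

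Reads counted on genes lay between 32706627 and 43121170 per CDD brain and between 31770217 and 34399295 per ND brain, and no pair of brains of the same diet had counts within sampling noise of each other. CDD replicate 2 stood apart, with 4984 counts on 28 Hox genes, which mark caudal hindbrain and spinal cord, against 16 to 112 in the other brains. *Xist*, which is transcribed from the inactive X chromosome of females, was at 1611 to 1700 CPM in CDD replicates 2 and 4 and ND replicate 4 and under 1 CPM in the other 5 brains, so the diets had unequal numbers of embryos of each sex. Values with CDD replicate 2 left out, and with *Xist* as a covariate, are given beside the called genes, the other pathway genes included. Of 8 marker genes listed for neural progenitors, 3 were called higher and 0 lower in CDD brains (*Nes*, *Pax6* and *Vim*, edgeR), and their summed level was 1536 to 1696 CPM in CDD and 1399 to 1477 CPM in ND brains. Of 8 each, 0 were called higher and 2 lower for the oligodendrocyte lineage (summed 156 to 178 CPM in CDD and 185 to 203 in ND) and for microglia and macrophages (63.2 to 72.4 against 71.5 to 83.7). For neurons 0 were higher and 1 lower, with sums of 6248 to 7071 CPM in CDD and 6397 to 6597 in ND. For endothelium 0 were higher and 1 lower (263 to 276.7 against 276.9 to 292), and for meningeal fibroblasts 1 was higher and 3 lower (470 to 521 against 499.6 to 601). For red blood cells 2 were higher and 0 lower (668 to 1244 against 721 to 2515). The 2 were the globin genes *Hbb-y* and *Hba-x*, at log2 fold changes of 2.24 and 1.67. The others were not called and ran from -0.84 (*Hbb-bs*) to 0.91 (*Hbb-bh1*), with *Hba-a1* at -0.64. For the choroid plexus none of 8 was called in either direction (193 to 517 against 292 to 334). Its sum was mostly *Ttr*, at a log2 fold change of 0.03, while the median of the list was 0.40. The 8 genes ran from -0.22 (*Kl*) to 0.73 (*Slc4a5*). The single liver gene tested was not called, with sums of 0.603 to 0.790 CPM in CDD and 0.585 to 1.04 in ND. No marker list was at 0 in all brains. In whole brains, fewer cells of a type and less RNA per cell cannot be told apart, and the part of these markers in the results on the members was not tested.

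Levels were compared between genes as CPM per kb of the gene length that the authors list, where CPM is the read count scaled to the TMM-adjusted library size. The members spanned a wide range, from *Gde1*, for a glycerophosphodiester phosphodiesterase, at 40.3 CPM per kb on average over the 8 brains to *Enpp6*, for a choline-specific phosphodiesterase known from oligodendrocytes, at 0.0375. Of the 43 members, 29 had a mean under 10 CPM per kb and 8 a mean under 1. Isozymes of the same step differed widely. Among choline kinases, *Chka* was at 6.56 and *Chkb* at 0.680 CPM per kb. Among ethanolamine kinases, *Etnk1* was at 16.8 and *Etnk2* at 1.74 CPM per kb. The brain-enriched *Pcyt1b* was at 16.1 CPM per kb and *Pcyt1a* at 9.64, and the lowest brain for *Pcyt1b* (15.5) lay above the highest for *Pcyt1a* (11.1).
The last step of PC synthesis is served by *Chpt1*, which makes PC alone, and by *Cept1*, which makes PC and PE. *Chpt1* was at 1.29 CPM per kb and *Cept1* at 7.37, while *Selenoi*, for the ethanolamine phosphotransferase, was at 7.90. *Pemt*, for the methyltransferase that turns PE into PC chiefly in the liver, was at 0.851 CPM per kb. *Lpcat1* held 50.0% of the summed level per length of the 6 acyl chain remodelling genes, and *Smpd3*, for a neutral sphingomyelinase, held 61.8% of that of the 4 sphingomyelin genes. Another gene with at least 10% as many reads overlaps 8 of the 43 members, and whether reads were counted by strand is not stated, so their levels and differences are less certain. The overlapping genes on the opposite strand are *Egfl7* for *Agpat2* (946% of the member's reads), *Emg1* for *Lpcat3* (265%), *Dram2* for *Cept1* (96.1%), *Mterf3* for *Ptdss1* (55.2%), *C730034F03Rik* for *Chkb* (48.5%), *Prmt7* for *Smpd3* (35.2%) and *2700046G09Rik* for *Sgms1* (17.2%). *Capns2* overlaps *Lpcat2* on the same strand (16.4%).

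**Figure D1:**
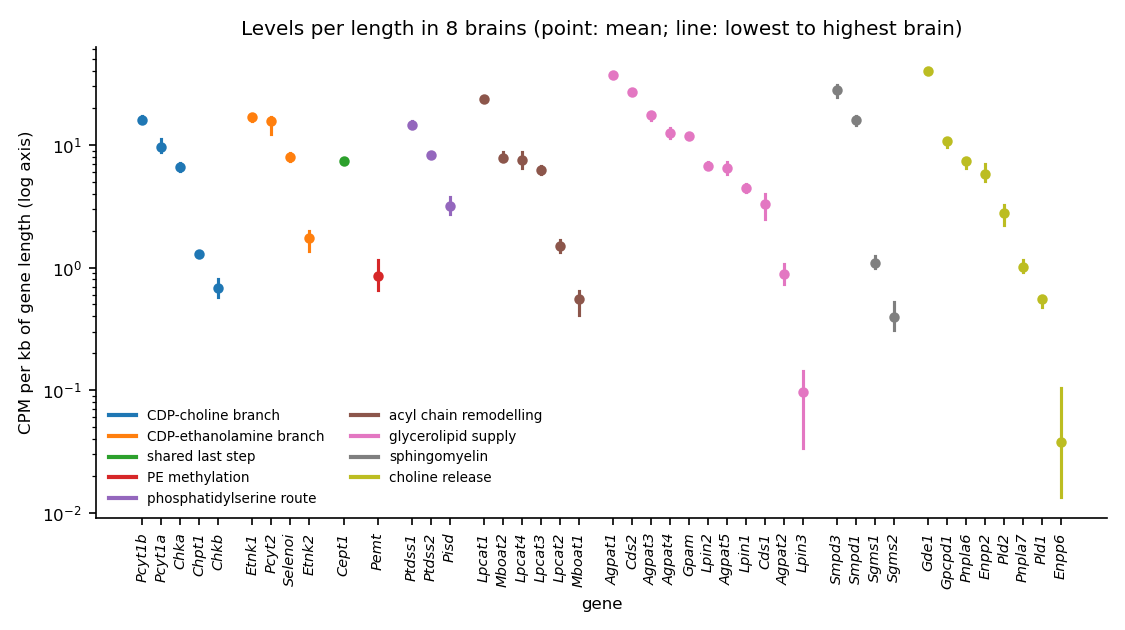
Mean CPM per kb of gene length over the 8 brains for each of the 43 members (points), with a line from the lowest to the highest brain, on a log axis and coloured by step. *Gde1*, *Agpat1*, *Smpd3*, *Cds2* and *Lpcat1* stand highest, at 23.8 to 40.3 CPM per kb, and *Lpin3* and *Enpp6* lowest, at 0.0960 and 0.0375.

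In the CDP-choline branch, 1 of 5 members was called, *Pcyt1a*, and the median log2 fold change of the 5 was 0.01 (all genes, -0.0038; -0.01 without CDD replicate 4). *Pcyt1a* (ENSMUSG00000005615, listed by the authors on chromosome 16 from 32249739 to 32293888 on the + strand, on a build they do not name) was at 72.6, 78.9, 71.1 and 82.2 CPM in CDD replicates 1 to 4 and at 65.4, 67.1, 67.3 and 66.9 CPM in ND replicates 1 to 4. No ND brain reached the lowest CDD brain, and the CDD brains were spread more widely, at 76.2 ± 5.22 CPM (SD, n = 4) against 66.6 ± 0.850 CPM (SD, n = 4). Its log2 fold change was 0.19 (standard error 0.049, 95% interval 0.09 to 0.29, edgeR adjusted p = 0.0196). Over the 8 brains 19925 reads were counted on it.
The 2 highest brains were CDD replicates 2 and 4, which were also the CDD brains with *Xist*. ND replicate 4, which had *Xist* too, was not set apart from the other ND brains. With *Xist* as a covariate the log2 fold change of *Pcyt1a* was 0.17 (adjusted p = 0.0224, edgeR), and without CDD replicate 2 it was 0.18 (adjusted p = 0.0587). The call was also lost in edgeR without ND replicate 1 (adjusted p = 0.0818), ND replicate 3 (0.0754) or ND replicate 4 (0.0686), each at a log2 fold change between 0.19 and 0.20. The summed progenitor markers, like *Pcyt1a*, were higher in every CDD than in every ND brain. They were at 1615, 1696, 1536 and 1683 CPM in CDD and at 1442, 1477, 1422 and 1399 CPM in ND replicates 1 to 4. Of the 8 genes *Nes*, *Pax6* and *Vim* were called higher. The rest were not called and ran from a log2 fold change of -0.04 (*Fabp7*) to 0.23 (*Hes1*), with *Slc1a3* at 0.03. The part of these markers in the result was not tested.

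*Pcyt1b* (ENSMUSG00000035246, on the X chromosome) was at 83.0, 87.9, 83.8 and 91.9 CPM in CDD and at 83.3, 85.6, 87.9 and 87.1 CPM in ND replicates 1 to 4. The diets overlapped, and the log2 fold change was 0.01 with a 95% interval of -0.08 to 0.10 (adjusted p = 0.910 in edgeR's test). The ratio of *Pcyt1a* to *Pcyt1b*, each per length, was 0.632, 0.649, 0.613 and 0.646 in CDD and 0.567, 0.566, 0.553 and 0.555 in ND replicates 1 to 4. The ratio was higher in every CDD brain, at 0.635 ± 0.016 (SD, n = 4) against 0.560 ± 0.0074 (SD, n = 4), and is a description of the same *Pcyt1a* values with the isozyme of the same brain as the scale.

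The kinase and the last step of the branch were not called. *Chka* was at 78.9, 76.0, 77.1 and 73.7 CPM in CDD and at 80.5, 78.2, 81.5 and 85.1 CPM in ND replicates 1 to 4. CDD replicate 1 lay above ND replicate 2, and the other CDD brains lay below the ND range. The log2 fold change of *Chka* was -0.09 (95% interval -0.18 to 0.0002, adjusted p = 0.210, edgeR). *Chkb*, for the minor choline kinase, was at 2.38, 1.83, 2.49 and 1.90 CPM in CDD and at 1.76, 2.25, 1.76 and 2.29 CPM in ND replicates 1 to 4. The diets overlapped, and with 584 reads in all the interval of its log2 fold change was wide, -0.25 to 0.45. *Chpt1* was at 11.1, 10.2, 10.6 and 11.1 CPM in CDD and at 10.8, 10.7, 10.4 and 11.0 CPM in ND replicates 1 to 4, with a log2 fold change of 0.00 (95% interval -0.15 to 0.16).

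In the CDP-ethanolamine branch the CDD mean was the lower one for 3 of 4 members (median log2 fold change -0.13, and -0.08 without CDD replicate 4), but edgeR called 0 of 4. At an unadjusted p under 0.05 there were 2, both lower (23.9% of all genes pass this in either direction), and DESeq2 called 1 and limma-voom 0. *Etnk1*, for the major ethanolamine kinase, was at 229, 235, 226 and 222 CPM in CDD and at 253, 239, 249 and 251 CPM in ND replicates 1 to 4. All CDD brains lay below all ND brains, and the log2 fold change was -0.12 (standard error 0.042, 95% interval -0.21 to -0.03, adjusted p = 0.0818, edgeR). DESeq2 gave an adjusted p of 0.0267 and a gene length offset in edgeR one of 0.0466. *Etnk2*, the minor form, was at 7.70, 7.65, 7.27 and 6.21 CPM in CDD and at 8.48, 8.47, 9.05 and 8.84 CPM in ND replicates 1 to 4. These did not overlap either, and the log2 fold change was -0.27 (standard error 0.093, 95% interval -0.47 to -0.08, adjusted p = 0.0731, edgeR).
*Pcyt2*, for the cytidylyl transferase of this branch, was at 70.3, 64.2, 72.1 and 53.1 CPM in CDD and at 72.8, 71.7, 69.4 and 70.8 CPM in ND replicates 1 to 4. CDD replicate 4 was lowest and CDD replicates 1 and 3 lay within the ND range, so the log2 fold change of -0.13 was within the spread (95% interval -0.29 to 0.03, adjusted p = 0.316, edgeR). *Selenoi* was at 97.5, 109, 100.5 and 113 CPM in CDD and at 102, 99.8, 106 and 102 CPM in ND replicates 1 to 4, with a log2 fold change of 0.03 (95% interval -0.07 to 0.13). The ratio of *Pcyt1a* to *Pcyt2* per length, the cytidylyl transferases of both branches, was 0.606, 0.721, 0.578 and 0.908 in CDD and 0.526, 0.549, 0.568 and 0.554 in ND replicates 1 to 4. CDD replicate 3 lay just above the highest ND brain, and CDD replicate 4, which had the lowest *Pcyt2*, stood far above. The kinases of both branches kept a like proportion: *Etnk1* to *Chka* per length was 2.54 ± 0.072 (SD, n = 4) with CDD and 2.59 ± 0.068 (SD, n = 4) with ND, and the diets overlapped.

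*Cept1* was at 24.0, 22.7, 23.1 and 23.9 CPM in CDD and at 22.9, 22.2, 22.1 and 22.9 CPM in ND replicates 1 to 4, with a log2 fold change of 0.06 (95% interval -0.06 to 0.18). *Pemt*, the route to PC that needs no dietary choline, was at 2.45, 1.51, 1.37 and 1.45 CPM in CDD and at 1.90, 1.66, 2.17 and 1.83 CPM in ND replicates 1 to 4. CDD replicate 1 was the highest of the 8 brains and the other 3 CDD brains were the lowest. Its log2 fold change was -0.17 (95% interval -0.58 to 0.24, adjusted p = 0.663, edgeR) and -0.39 without CDD replicate 1 (lowest adjusted p over all alternatives, 0.197), at 496 reads in all.

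**Figure D2:**
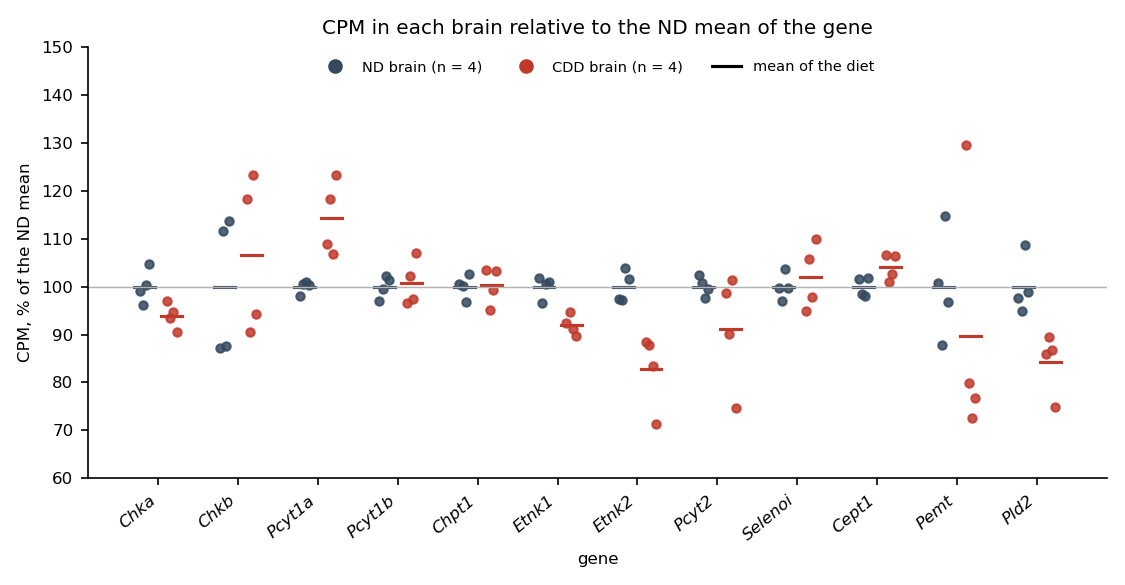
CPM of each brain as a percentage of the gene's ND mean, for the genes of the CDP-choline and CDP-ethanolamine branches, *Cept1*, *Pemt* and *Pld2* (points are brains, short lines the mean of each diet). The 4 CDD brains lie above the ND brains for *Pcyt1a* and below them for *Etnk1*, *Etnk2* and *Pld2*, and the diets overlap for the other 8 genes.

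Of the genes of the PS route, edgeR called 0 of 3, with 1 at an unadjusted p under 0.05 and 0 called by DESeq2 or limma-voom. *Pisd*, for the mitochondrial decarboxylase that makes PE from PS, had the smallest p. It was at 15.7, 16.3, 18.6 and 16.4 CPM in CDD and at 18.3, 21.7, 19.9 and 18.1 CPM in ND replicates 1 to 4, and CDD replicate 3 lay within the ND range. The log2 fold change of *Pisd* was -0.22 (95% interval -0.38 to -0.06, adjusted p = 0.0822, edgeR), and it was called without CDD replicate 3 (adjusted p = 0.0285). Reads of *Pisd* may be shared with the pseudogene copies *Pisd-ps1* (15193 reads over the 8 brains, against 5061 on *Pisd*) and *Pisd-ps2* (2201 reads), so its value is uncertain. *Ptdss1* and *Ptdss2*, for the synthases that exchange choline or ethanolamine for serine, both had a log2 fold change of 0.01 and intervals from -0.10 to 0.11.

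Among the 6 genes that exchange acyl chains on lysophospholipids, edgeR called 0, with 1 at an unadjusted p under 0.05, 1 called by DESeq2 and 0 by limma-voom, and the median log2 fold change was -0.07 (-0.03 without CDD replicate 2). *Lpcat4*, for a lysophospholipid acyltransferase, was at 19.1, 19.0, 22.8 and 18.2 CPM in CDD and at 22.7, 22.6, 24.5 and 22.4 CPM in ND replicates 1 to 4. The diets overlapped through CDD replicate 3. The log2 fold change was -0.22 (95% interval -0.37 to -0.07, adjusted p = 0.0664, edgeR), and without CDD replicate 3 it was -0.30 (adjusted p = 0.00764). DESeq2, the fit without a filter on low counts and the fit with replicate number as a block called it too. *Lpcat1*, the most abundant of the 6, had a log2 fold change of 0.00 (95% interval -0.08 to 0.09), *Lpcat3* one of -0.01 and *Mboat2* one of 0.06. The low genes *Lpcat2* and *Mboat1* had log2 fold changes of -0.13 and -0.15, with intervals of -0.36 to 0.09 and -0.50 to 0.21.

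The 11 genes that supply phosphatidic acid, diacylglycerol and CDP-diacylglycerol had a median log2 fold change of -0.04, and edgeR called 0. Leaving out CDD replicate 3, ND replicate 1 or ND replicate 4 moved this median to 0.0052, -0.0042 and -0.0048. At an unadjusted p under 0.05 there were 2, *Cds1* and *Agpat3*, both lower, and DESeq2 called 1 and limma-voom 0. *Cds1*, for a CDP-diacylglycerol synthase, had the lowest log2 fold change of the members, -0.31 (standard error 0.10, 95% interval -0.52 to -0.10, adjusted p = 0.0568, edgeR). It was at 13.6, 11.7, 10.8 and 9.77 CPM in CDD and at 14.0, 12.2, 15.1 and 15.7 CPM in ND replicates 1 to 4. CDD replicate 1 lay above ND replicate 2, and without either of them the gene was called, at a log2 fold change of -0.40 at the lowest. Its isozyme *Cds2* had the higher level per length (27.1 against 3.27 CPM per kb) and had a log2 fold change of 0.01 (95% interval -0.08 to 0.10). The first acyltransferase, *Gpam*, had a log2 fold change of -0.06, the 5 *Agpat* genes lay between -0.09 and 0.05, and *Lpin1* and *Lpin2*, for phosphatidate phosphatases, were at -0.06 and 0.01 on the same scale. *Lpin3* had the highest log2 fold change of all members, 0.74, but at 0.125 to 0.527 CPM and 100 reads in all its interval ran from -0.09 to 1.57.

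For sphingomyelin, edgeR called 0 of 4 genes, 0 passed an unadjusted p of 0.05, and DESeq2 and limma-voom called 0. *Smpd3* was at 129, 146, 142 and 155 CPM in CDD and at 150.5, 145, 160.1 and 157 CPM in ND replicates 1 to 4, with a log2 fold change of -0.10 (95% interval -0.21 to 0.01, adjusted p = 0.243, edgeR). *Smpd1*, for the lysosomal sphingomyelinase, had a log2 fold change of -0.04 (95% interval -0.15 to 0.07). *Sgms1* and *Sgms2*, whose products move phosphocholine from PC to ceramide, had log2 fold changes of -0.03 and 0.10, the latter with an interval from -0.26 to 0.46.

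Of the 8 genes grouped here under choline release, 7 were tested, 1 was called lower by edgeR and 6 had a log2 fold change below 0 (median -0.08, and -0.12 without ND replicate 3). The grouping is by step and does not mean that each product, that of *Gde1* for one, is known to release choline. *Pld2* (ENSMUSG00000020828, listed by the authors on chromosome 11 from 70430890 to 70448936 on the + strand) was at 16.1, 16.8, 16.3 and 14.0 CPM in CDD and at 18.3, 17.8, 20.4 and 18.5 CPM in ND replicates 1 to 4. Every CDD brain lay below every ND brain, with means of 15.8 ± 1.21 CPM (SD, n = 4) and 18.7 ± 1.13 CPM (SD, n = 4). The log2 fold change was -0.25 (standard error 0.073, 95% interval -0.40 to -0.09, adjusted p = 0.0421 in edgeR's test), over 4816 reads. The call was close to the threshold: it was lost with limma-voom (adjusted p = 0.0528) and, with edgeR, without CDD replicate 1 (0.0677), CDD replicate 4 (0.0877), ND replicate 1 (0.0888), ND replicate 3 (0.177) or ND replicate 4 (0.101). Its difference on the log2 scale stayed between -0.27 and -0.20. Without CDD replicate 2 the gene was called (adjusted p = 0.0398, edgeR), and with *Xist* as a covariate too (0.0456). The summed oligodendrocyte lineage markers, like *Pld2*, were lower in every CDD than in every ND brain. So, narrowly, were the summed endothelium markers (highest CDD brain 276.7 CPM, lowest ND brain 276.9 CPM). Of the 8 oligodendrocyte lineage genes only *Olig1* and *Pdgfra* were called, both lower. The 8 ran from a log2 fold change of -0.66 (*Sox10*) to 0.01 (*Mbp*). Of the 8 endothelium genes only *Cldn5* was called, at a log2 fold change of -0.28. The others ran from -0.10 (*Tek*) to 0.09 (*Emcn*). The part of both lists in the *Pld2* result was not tested. *Pld1*, for the other PC phospholipase D, was at 6.16 to 7.39 CPM in CDD and 6.91 to 7.54 CPM in ND brains (log2 fold change -0.05, 95% interval -0.25 to 0.15).
*Gpcpd1*, whose product splits glycerophosphocholine into choline and glycerol phosphate, was the fifth member whose diets did not overlap, at 70.0 to 78.4 CPM in CDD and 80.1 to 82.0 CPM in ND brains (log2 fold change -0.12, adjusted p = 0.0847, edgeR). The other 4 were *Pcyt1a*, *Etnk1*, *Etnk2* and *Pld2*, so that 11.9% of the tested members had diets apart in this way, as did 15.0% of all genes tested. *Pnpla6*, for a lysophospholipase known as neuropathy target esterase, had a log2 fold change of -0.13 (95% interval -0.23 to -0.03, adjusted p = 0.0868, edgeR), and its relative *Pnpla7* one of -0.08 (95% interval -0.28 to 0.12). *Gde1* was at 66.0 to 71.2 CPM in CDD and 64.7 to 70.8 CPM in ND brains (log2 fold change -0.03).

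A pair of the choline release genes is known to mark particular cells, and they are described here after their values were seen. *Enpp2*, for autotaxin, which turns lysophosphatidylcholine into lysophosphatidic acid and choline and is abundant in the choroid plexus, was at 40.8, 38.4, 29.2 and 29.4 CPM in CDD and at 32.2, 33.4, 32.1 and 34.7 CPM in ND replicates 1 to 4. The CDD brains thus lay on both sides of the ND range, and the log2 fold change was 0.06 (adjusted p = 0.789, edgeR). Choroid plexus markers summed to 517, 334, 294 and 193 CPM in the same CDD brains and to 292 to 334 CPM in ND brains. Most of that sum was *Ttr*, which ranged from 149 CPM (CDD replicate 4) to 439 CPM (CDD replicate 1). *Clic6*, another of these markers, was at 30.0, 23.7, 19.9 and 19.2 CPM in CDD and at 16.2 to 18.6 CPM in ND brains. It was not called (adjusted p = 0.0562, edgeR). *Folr1* was at 5.86, 5.62, 3.67 and 3.62 CPM in CDD and at 3.94 to 4.77 CPM in ND brains. The log2 fold change was 0.43 for *Clic6*, 0.09 for *Folr1* and -0.22 for *Kl*. The part of these markers in the *Enpp2* values was not tested. *Enpp6* did not pass the filter on low counts, with 3, 23, 12 and 3 reads in CDD and 7, 7, 10 and 3 reads in ND replicates 1 to 4. The highest of these was in CDD replicate 2, the brain with Hox reads.

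**Figure D3:**
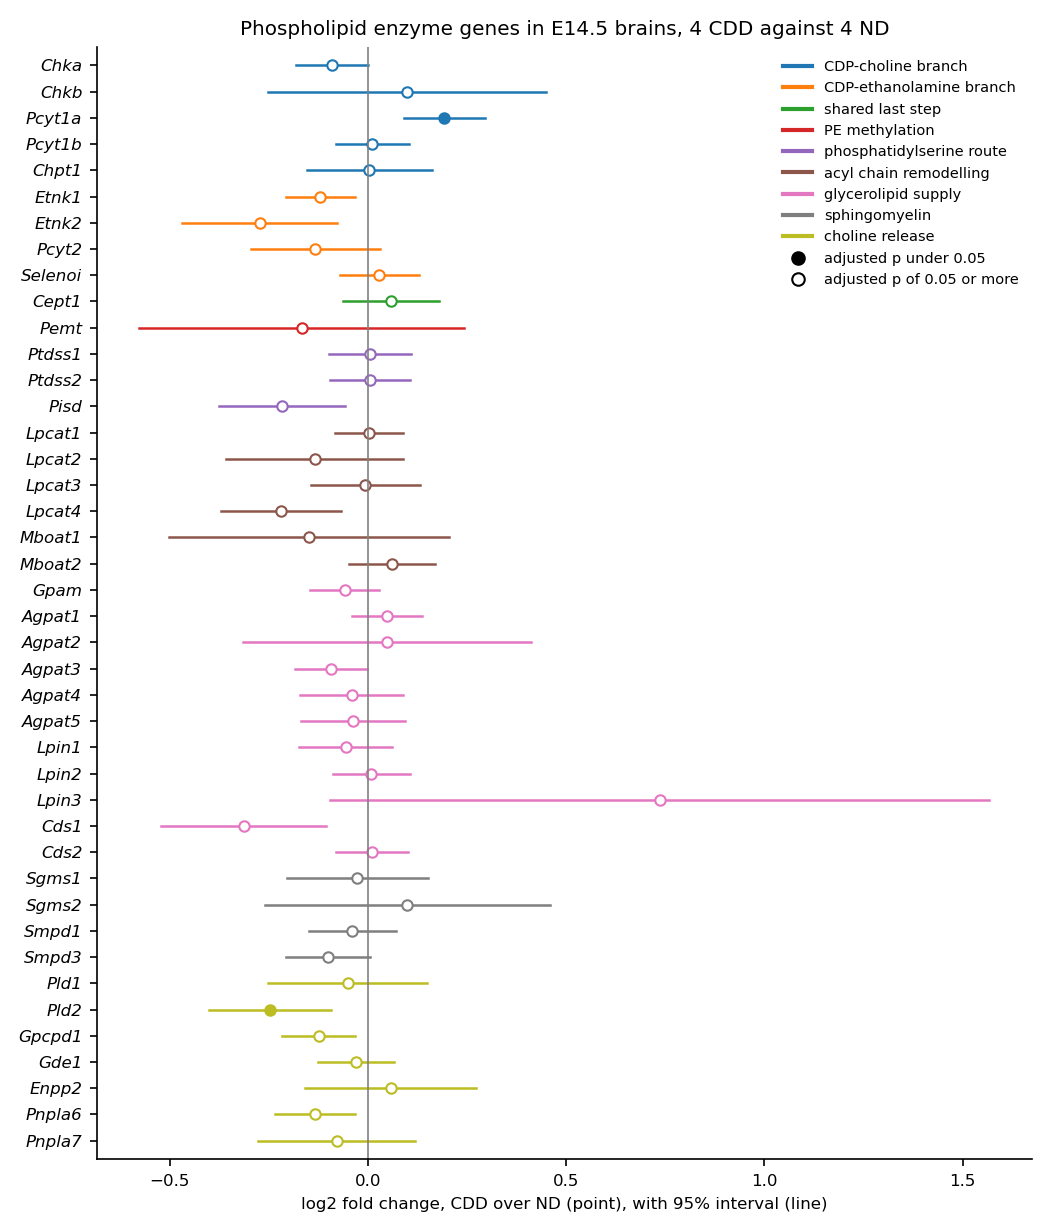
Log2 fold change of CDD over ND (points) with its 95% interval (lines) for the 42 tested members, coloured by step, where filled points passed an adjusted p of 0.05 in edgeR's test. The filled points are *Pcyt1a* at 0.19 and *Pld2* at -0.25, 25 members lie below 0 and 17 above, and *Lpin3* has the widest interval.

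The median log2 fold change of all tested members was -0.04, against -0.0038 over all genes, and 9 of the 10 members at an unadjusted p under 0.05 were lower in CDD brains. The 10 were *Pcyt1a*, which was higher, and *Etnk1*, *Etnk2*, *Pisd*, *Lpcat4*, *Agpat3*, *Cds1*, *Pld2*, *Gpcpd1* and *Pnpla6*. Among all genes, 4627 passed this unadjusted threshold, 2280 higher and 2347 lower, which is 23.9% of those tested. Calls changed with single brains, in the members as over all genes. Without ND replicate 1, 3 or 4 edgeR called none of the members and 3.5%, 2.4% and 3.13% of all genes, and without CDD replicate 3 it called 5 members and 12.7% of all genes. The *Pcyt1a* difference was positive in all 18 alternative fits and passed the threshold in 14, and the *Pld2* difference was negative in all 18 and passed it in 12.

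**Figure D4:**
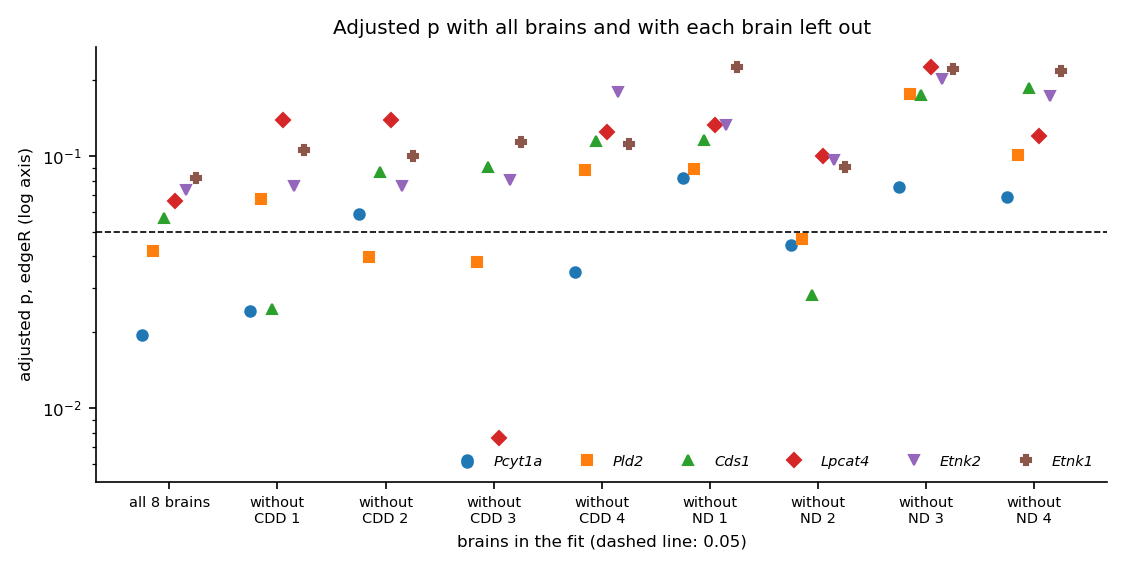
Adjusted p from edgeR (log axis) for *Pcyt1a*, *Pld2*, *Cds1*, *Lpcat4*, *Etnk2* and *Etnk1* with all 8 brains and with each brain left out. *Pcyt1a* is under the dashed line at 0.05 in 4 of the 8 reduced sets and *Pld2* in 3, and no point lies under it without ND replicate 1, 3 or 4.

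To set the members beside the rest of their pathway, 36 other genes of phospholipid metabolism were listed, and 34 were tested. EdgeR called 3 of these 34, all lower in CDD brains, with 17 log2 fold changes above 0 and 17 below (median 0.01). Among all genes 8.83% were called in either direction and 4.59% lower. The share of the 34 was thus like the former and above the latter, but it rests on 3 genes. The list was chosen with earlier results of these data known, so this is a description and not a test. *Plpp5*, for a phosphatase of phosphatidic acid and related lipids, was at 21.1, 19.8, 22.8 and 15.6 CPM in CDD and at 24.6, 24.2, 26.6 and 25.8 CPM in ND replicates 1 to 4, without overlap (log2 fold change -0.35, standard error 0.089, adjusted p = 0.0224, edgeR). *Pla2g12a*, for a secreted phospholipase A2, was at 13.9, 13.04, 14.45 and 13.2 CPM in CDD and at 15.6, 16.8, 15.7 and 16.1 CPM in ND replicates 1 to 4 (log2 fold change -0.23, adjusted p = 0.0420, edgeR). *Mboat7*, which places arachidonic acid on phosphatidylinositol, was at 76.1, 80.1, 79.0 and 75.6 CPM in CDD and at 86.5, 82.7, 85.7 and 87.1 CPM in ND replicates 1 to 4 (log2 fold change -0.14, adjusted p = 0.0445, edgeR). The diets did not overlap for any of the 3, and all 3 calls were lost without ND replicate 1, 3 or 4. The call of *Plpp5* held in the other 5 edgeR fits with a brain left out, among them that without CDD replicate 2 (adjusted p = 0.0445), and in all 10 further alternatives, among them that with *Xist* as a covariate (0.0160). *Pla2g12a* and *Mboat7* were each called in 1 of 8 fits with a brain left out, that without CDD replicate 3, and in 5 of 10 further alternatives. Without CDD replicate 2 the edgeR adjusted p was 0.0922 for *Pla2g12a* and 0.0522 for *Mboat7*, and with *Xist* as a covariate it was 0.0538 and 0.0394. *Phospho1* and *Etnppl*, whose products break down phosphocholine and phosphoethanolamine, had 25 and 12 reads over the 8 brains and were not tested.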

How the data were processed

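The series holds polyadenylated RNA of 8 whole E14.5 WT brains, grouped by maternal diet as the labels give it. Submitters' processing notes name HISAT2 2.0.5, featureCounts 1.5.0-p3 and DESeq2 1.20.0, and the genome build is not given in the sources used here. Every test started from the unnormalized count of reads on each gene in each brain, as the authors deposited it. They also deposited a normalized signal, the count divided by a size factor of the library, and FPKM values made from it and from the gene length they list. That length was used here for levels per kb, and the signal and FPKM columns were used only to check the table. Deposited fold changes and p-values of the diets, and lists of genes at an unadjusted p under 0.05, hold the authors' own comparison and were not used.

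Genes were filtered with filterByExpr, scaled by TMM and tested with the robust quasi-likelihood test of edgeR 4.0.16 on diet alone, with Benjamini-Hochberg adjustment over all 19367 genes kept (threshold 0.05, common biological coefficient of variation 0.0814). Depth was 31770217 to 43121170 counts per brain. Alternatives were DESeq2 1.42.0, limma-voom (limma 3.58.1), RLE and upper-quartile scaling, no filter, at least 10 counts in every brain, a loess offset on gene length (span 0.3), replicate number as a block, *Xist* as a covariate, a threshold of 0.01 and leaving out each brain. The test was tried on simulated counts. Software was matplotlib 3.10.9, SciPy 1.17.1, NumPy 2.4.6 and pandas 2.3.3 under Python 3.11.15, beside R 4.3.3.

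The members, the 36 other pathway genes and the marker lists (neural progenitors, neurons, oligodendrocyte lineage, choroid plexus, meningeal fibroblasts, endothelium, microglia and macrophages, red blood cells, liver) were chosen with earlier results of these data known. All members are accounted for. Values in every brain are given for called members, for tested members of the CDP-choline and CDP-ethanolamine branches, *Cept1* and *Pemt*, and for the member with the smallest p in each other step. Up to 8 called genes of the other pathway list are named, and marker genes where a named member is known to mark a cell type or where the genes of a list differed. Promoter windows come from RefSeq (GRCm38.p6). Because 0 of 43 members share an end with that build, the authors' gene positions were not joined to it.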

Additional observations from a re-analysis of the deposited data

Results flagged for a closer look

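In 84 groups of 4 brains, each member by diet, an end value was set against the gap to its nearest neighbour and the range of the group. In 4 of them 1 brain stood far from the rest, which chance gives in about 4.2. *Pemt* was highest in CDD replicate 1, at 1.3235 on the log2 CPM scale against 0.514 to 0.645 in the other CDD brains. *Lpcat4* was highest in ND replicate 3, at 4.6209 against 4.49 to 4.51 in the other ND brains. *Pld1* was lowest in CDD replicate 3, at 2.6355 against 2.86 to 2.90. *Gde1* was highest in CDD replicate 2, the brain with Hox reads, at 6.1543 against 6.05 to 6.06. No explanation was tested for these brains.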

How the results depend on the processing

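The number of members called was 5 with DESeq2 (*Cds1*, *Etnk1*, *Lpcat4*, *Pcyt1a* and *Pld2*), 1 with limma-voom (*Pcyt1a*), 4 without a filter on low counts and 0 at an adjusted p under 0.01, against 2 in the edgeR test as reported. The same settings called 2195, 1414, 2374 and 477 of all genes, against 1710. With each brain left out in turn it ranged from 0 (without ND replicate 1, 3 or 4) to 5 (without CDD replicate 3), and was 1 without CDD replicate 2. The count over all genes was 471 (without ND replicate 3) to 2495 (without CDD replicate 3) with a brain left out, with 688 without ND replicate 1 and 615 without ND replicate 4. The 3 other pathway genes became 0 at an adjusted p under 0.01 and 0 to 6 with a brain left out. An offset on gene length gave 1203 higher and 870 lower genes, where the test as reported gave 822 and 888. The fits with a brain left out use fewer samples, and the causes of the other shifts were not tested.

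With the replicate number as a block, 1812 genes, 3 members (*Lpcat4*, *Pcyt1a* and *Pld2*) and 1 other pathway gene (*Plpp5*) were called. The numbers share no stated litter or batch, and deviations of same-numbered brains correlated by 0.105, -0.133, 0.117 and 0.232, so they were not treated as pairs.

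The median log2 fold change lay between -0.0957 and -0.0282 for acyl chain remodelling and between -0.0488 and 0.0052 for glycerolipid supply with a brain left out. It was -0.0786 for the CDP-ethanolamine branch without CDD replicate 4 (-0.1258 with all brains) and -0.119 for choline release without ND replicate 3 (-0.0785). Of the 42 members, 17 changed sign in at least 1 alternative, none of them while called, and 25 did not. Of all members, 8 were called in at least 1 alternative and 34 in none. The fewest reads over the 8 brains were those of *Enpp6* (68), *Lpin3* (100), *Pemt* (496) and *Agpat2* (526).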

Other observations

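Of the members, CDD replicate 4 gave the lowest value in 12 and the highest in 6 of 42, which is 42.9% where 45.4% of all genes tested had it at an end of the range. CDD replicate 1 was at an end of the range in 16 of 42 members, 11 times the lowest, which is 38.1% against 26.8% of all genes. ND replicate 4 was at an end in 6 members (14.3%, and 19.8% of all genes).

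Groups of the other pathway genes were also described by their medians, without a test of the group. For 7 acyltransferase genes the median was 0.09 on the log2 scale, with 6 above 0. *Gnpat*, for the first enzyme of ether lipid synthesis, was higher by 0.13 on that scale (adjusted p = 0.0664, edgeR) and was the only gene of these 7 that was higher in every CDD than in every ND brain. The 4 phosphatidic acid phosphatase genes had a median of -0.19, and beside *Plpp5*, *Plpp1* stood at -0.26 (adjusted p = 0.0928, edgeR) with overlapping diets. *Napepld*, for a phospholipase D that makes N-acylethanolamines from PE, stood at 0.27 (adjusted p = 0.0785, edgeR) and was called in 3 of the fits in which no brain was left out. *Pctp*, for a PC transfer protein, was at a log2 fold change of 0.33 (95% interval -0.07 to 0.73) with 353 reads over the 8 brains.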
